A study of Mus musculus with 27 samples.

Results

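The 9 genes described here carry out the making, transport and sensing of retinoic acid: Aldh1a1, Aldh1a2 and Aldh1a3 (synthesis), Rbp4 and Stra6 (retinol supply), Crabp1 and Crabp2 (binding inside the cell) and Rara and Rarb (receptors). They were chosen by name, as the probes whose gene name in the scanner files is one of these 9, and they are 9 of the 21866 genes tested. Together they have 11 probes, and each gene was tested through 1 of them. The RNA came from the whole uterus. The mice were females aged 8 weeks whose ovaries had been removed, of the strains C57BL/6 (B6) and C3H and of their first-generation hybrid (F1). After 1 to 2 weeks of rest the animals received 1 intraperitoneal injection of 17β-estradiol (E2) at 40 µg per kg of body weight or of the ethanol and saline vehicle. Uteri were taken 2 h or 24 h after E2, and the labels give no time for vehicle. The 9 groups held 3 arrays each, 27 in all. The study's text speaks of 3 animals per group without tying an array to an animal, so the p-values measure the spread between these arrays.

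Vitamin A reaches tissues as retinol, is oxidised to retinaldehyde by retinol dehydrogenases and then to retinoic acid by the ALDH1A enzymes. Retinoic acid enters the nucleus, where the retinoic acid receptors, paired with retinoid X receptors, sit on repeated short DNA motifs of their target genes, recruit coactivators with ligand and hold corepressors without it. Cytosolic binding proteins and CYP26 enzymes limit how much of it reaches the receptors. In the uterus, where estrogen drives epithelial growth and prepares the stroma, the pathway has long been studied as a partner of steroid hormones.

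Levels are given as log2 processed signal minus the array's 75th percentile, so 0 is that percentile, and a level of one gene's probe cannot be set against that of another. The 75th percentile lay between 1147.58 and 1483.04 intensity units, and 72.35% to 79.41% of probes were well above background per array. The arrays farthest from their groups were replicate 1 of C3H at 24 h, of B6 vehicle and of C3H at 2 h, with 497, 436 and 297 genes over 1 log2 unit from the mean of the group. The epithelial, stromal and smooth muscle marker lists (7, 7 and 5 genes) were well above background on all arrays. Fos and Greb1, known estrogen targets, rose at 2 h by 5.18 to 5.61 and by 3.65 to 4.05 log2 over the 3 strains, and Ltf (lactoferrin) rose at 24 h by 2.75 to 4.34. In whole tissue, fewer cells of a type and less RNA per cell cannot be told apart. Epithelial markers were higher at 24 h (6 of 7 called higher and 1 lower in each strain), with summed linear levels of 295 to 320 against 117 to 122 in B6 vehicle, and 6 of 7 stromal markers were lower at 2 h in each strain. The part of such shifts in the results below was not tested.

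After E2 some of the 9 genes rose and others fell, at 2 h and at 24 h. Aldh1a2 rose 3.02- to 3.66-fold at 2 h in all 3 strains, while Aldh1a3 fell 14.3- to 20.5-fold by 24 h. The binding protein genes Crabp1 and Crabp2 rose 6.83- to 23.1-fold and at least 4.1-fold by 24 h. The receptor genes moved briefly and in opposite directions, Rara up and Rarb down at 2 h. A member was called at an adjusted p under 0.05 over all genes tested (limma, Benjamini-Hochberg). At 2 h against vehicle 6 of the 9 were called in B6, 8 in C3H and 7 in F1, where 56.2%, 60.3% and 59.2% of all genes tested were called. At 24 h against vehicle 7, 7 and 6 were called, where 68.0%, 67.1% and 68.5% of all genes were, and between 2 h and 24 h 7, 8 and 7 were called, where 68.6%, 70.6% and 68.4% were. These shares lie near the background, so their size says nothing particular about the 9 genes. The members' median change at 2 h was 0.07, -0.34 and -0.04 log2 beside -0.08, -0.10 and -0.10 for all genes, and at 24 h 0.01, 0.37 and 0.04 beside -0.05, -0.16 and -0.03. The comparisons at 2 h and 24 h share their vehicle arrays.

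**Figure D1:**
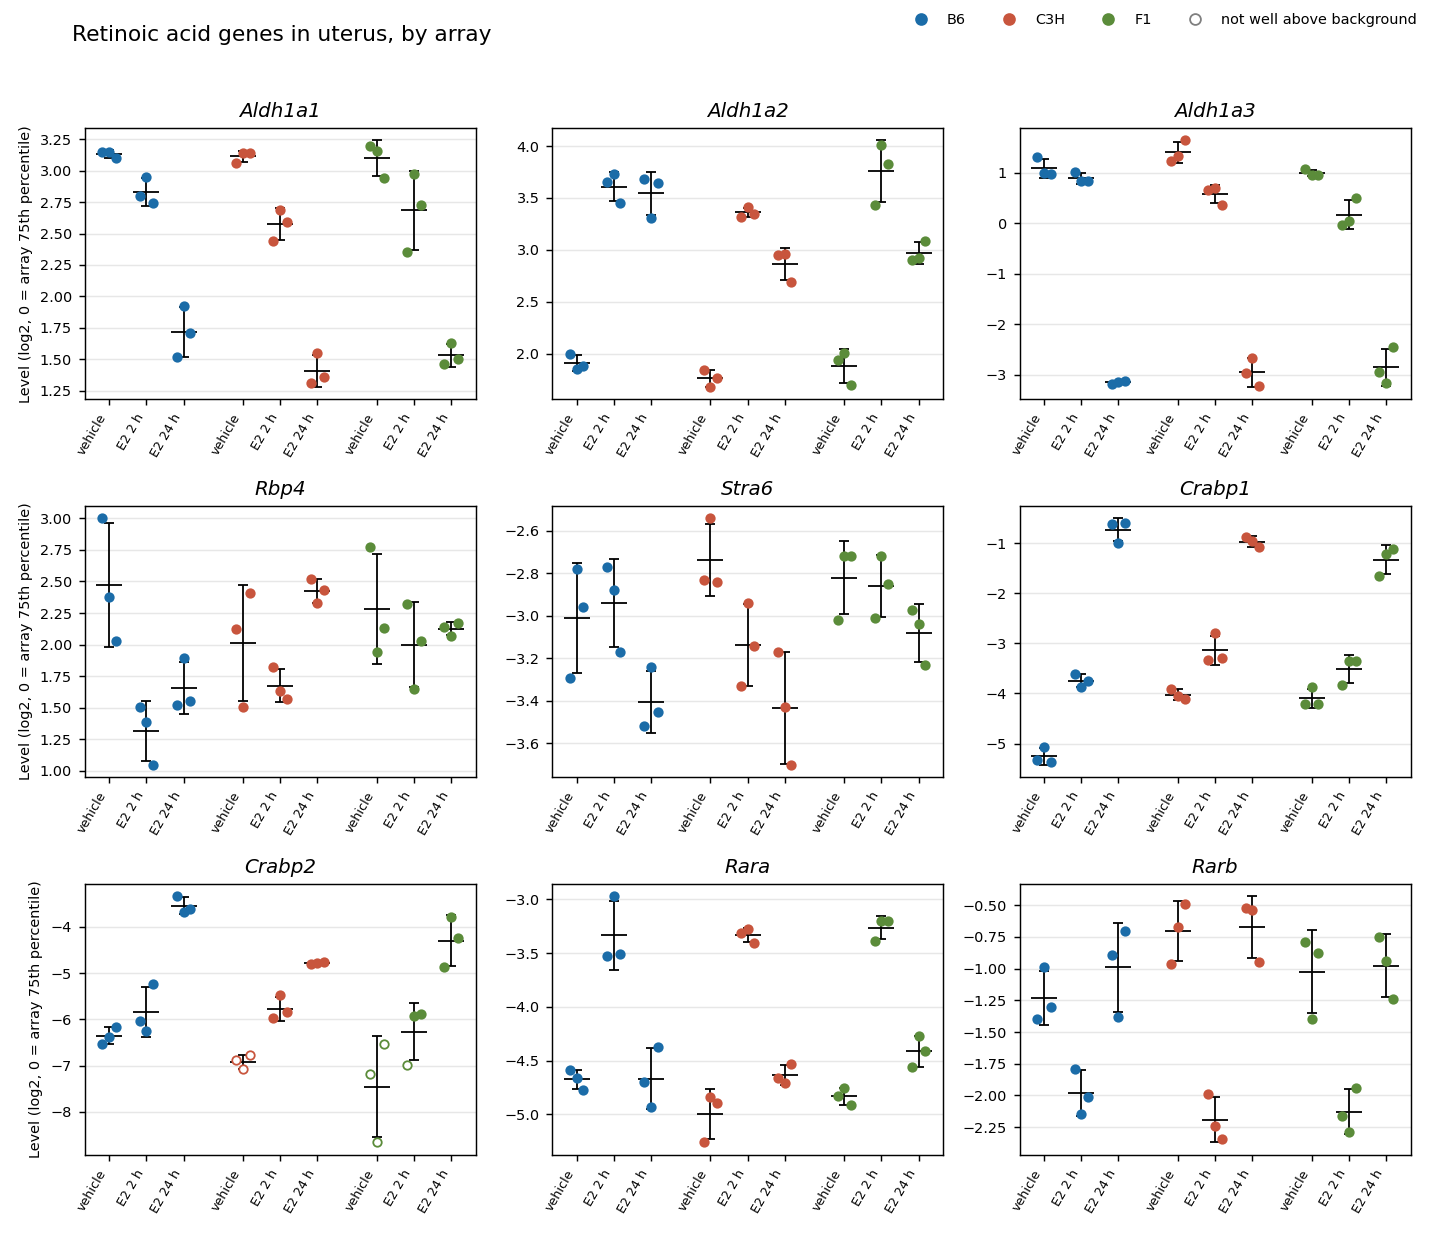
Level of each of the 9 genes on each of the 27 arrays (log2, 0 is the array's 75th percentile), one panel per gene with its own vertical scale. Points are arrays, coloured by strain and open where the probe was not well above background, and bars are group mean and SD of 3 arrays. Aldh1a3 fell from about 1 to about -3 at 24 h in every strain, and Rara and Rarb moved in opposite directions at 2 h.

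Of the 3 synthesis genes Aldh1a2 rose, and Aldh1a1 and Aldh1a3 fell by 24 h in every strain. Aldh1a2 encodes the retinaldehyde dehydrogenase of embryonic and stromal tissue. In B6, Aldh1a2 was at 2.00, 1.85 and 1.88 in vehicle, 3.65, 3.73 and 3.45 at 2 h and 3.68, 3.31 and 3.64 at 24 h. In C3H, Aldh1a2 had levels of 1.84, 1.68 and 1.77 in vehicle, 3.32, 3.41 and 3.35 at 2 h and 2.95, 2.96 and 2.69 at 24 h. In F1, Aldh1a2 was at 1.94, 2.01 and 1.70 in vehicle, 3.43, 4.01 and 3.83 at 2 h and 2.90, 2.92 and 3.09 at 24 h. Every E2 array was above every vehicle array of its strain, at both times. The 2 h rises in the 3 strains, in the order B6, C3H, F1, were 1.70, 1.60 and 1.87 log2 (SE 0.13, 3.24-, 3.02- and 3.66-fold, adjusted p 3.72e-10, 8.67e-10 and 6.82e-11). At 24 h the gene was still 1.63, 1.10 and 1.09 log2 above vehicle. From 2 h to 24 h it fell by 0.49 in C3H and by 0.79 in F1 (adjusted p 0.00177 and 1.34e-05), whereas the B6 value of -0.06 did not pass the test (adjusted p 0.671). With slide as a fixed term the C3H fall was -0.41 (adjusted p 0.0714).

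Aldh1a3, a related retinaldehyde dehydrogenase typical of epithelia, had the largest fall of the 9 genes. The B6 levels were 1.31, 0.99 and 0.98 in vehicle, 1.02, 0.83 and 0.83 at 2 h and -3.19, -3.14 and -3.12 at 24 h. In C3H, Aldh1a3 had levels of 1.24, 1.34 and 1.64 in vehicle, 0.66, 0.70 and 0.37 at 2 h and -2.97, -2.66 and -3.23 at 24 h. In F1, Aldh1a3 was at 1.07, 0.96 and 0.95 in vehicle, -0.04, 0.05 and 0.51 at 2 h and -2.95, -3.16 and -2.44 at 24 h. All 9 arrays at 24 h lay below all other arrays of the series for this probe. Against vehicle the 24 h levels were lower by 18.9-fold in B6, 20.5-fold in C3H and 14.3-fold in F1 (adjusted p 3.65e-14, 1.21e-13 and 2.18e-13). At 2 h the level had fallen by 0.83 log2 in C3H and by 0.82 in F1 (SE 0.17, adjusted p 0.000342 and 0.000358), and the B6 value was -0.20 (adjusted p 0.357). A dimmer probe for another Aldh1a3 sequence showed the 24 h fall, by 3.14, 3.24 and 2.99 log2 (SE 0.27), or at least 5.72-fold in F1, where it was not well above background on any array at 24 h. That probe did not show the 2 h fall, with 0.53, -0.07 and 0.00 log2 in B6, C3H and F1 (adjusted p 0.101, 0.835 and 0.997). Of 7 epithelial markers 6 were called higher and 1 lower at 24 h in each strain, and their part in the Aldh1a3 values was not tested.

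Aldh1a1, the retinaldehyde dehydrogenase of liver and many epithelia, declined in steps. In B6, the levels were 3.15, 3.15 and 3.1 in vehicle, 2.80, 2.95 and 2.74 at 2 h and 1.52, 1.92 and 1.71 at 24 h. In C3H, Aldh1a1 had levels of 3.06, 3.14 and 3.14 in vehicle, 2.44, 2.69 and 2.59 at 2 h and 1.31, 1.55 and 1.36 at 24 h. In F1, Aldh1a1 was at 3.20, 3.16 and 2.94 in vehicle, 2.35, 2.97 and 2.73 at 2 h and 1.46, 1.63 and 1.5 at 24 h. The 24 h arrays were below the 2 h arrays in each strain with no overlap, and below vehicle by 1.42, 1.71 and 1.57 log2 (SE 0.12, 2.67-, 3.26- and 2.97-fold, adjusted p 2.54e-09, 2.91e-10 and 6.57e-10). The 2 h fall was smaller, by 0.30 log2 in B6, 0.54 in C3H and 0.42 in F1 (adjusted p 0.0429, 0.000828 and 0.00619). The B6 and F1 calls at 2 h were lost under median centring, with -0.23 and -0.29 log2 (adjusted p 0.189 and 0.094). The B6 call was also lost without either of 2 E2 2 h arrays (replicates 1 and 3) or any of the 3 vehicle arrays, with changes of -0.26 to -0.32. The F1 call was lost without F1 E2 2 h replicate 1 (-0.25, adjusted p 0.0641), the lowest of its group. Genes of liver, where Aldh1a1 is abundant, were called lower at 24 h as well (7 of 7 tested in each strain). Their summed level in vehicle was 9.81 to 38.9 in B6 and 2.49 to 3.26 in F1. Aldh1a1 vehicle means were 3.13 and 3.1 log2 in these strains, and the part of liver RNA in the Aldh1a1 values was not tested. Aldh1a7, a close relative of Aldh1a1 that a probe may not fully separate, was lower at 24 h by 1.36, 1.05 and 1.00 log2.

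Of the supply genes, Rbp4 fell in B6 and Stra6 was lower at 24 h in B6 and C3H. Rbp4 encodes the plasma carrier of retinol, made mainly by liver and fat. B6 arrays held Rbp4 at 3.00, 2.38 and 2.03 in vehicle, 1.51, 1.39 and 1.05 at 2 h and 1.52, 1.89 and 1.55 at 24 h. In C3H, Rbp4 had levels of 2.12, 1.51 and 2.41 in vehicle, 1.82, 1.63 and 1.57 at 2 h and 2.52, 2.33 and 2.43 at 24 h. In F1, Rbp4 was at 2.77, 1.94 and 2.13 in vehicle, 2.32, 1.65 and 2.03 at 2 h and 2.14, 2.07 and 2.17 at 24 h. Vehicle arrays were the most scattered, with SDs of 0.49, 0.46 and 0.43 log2. In B6 all 6 E2 arrays lay below the 3 vehicle arrays, and the level was lower by 1.16 log2 at 2 h and by 0.82 at 24 h (SE 0.24, 2.23- and 1.76-fold, adjusted p 0.000392 and 0.0057). The C3H changes of -0.34 at 2 h and 0.41 at 24 h did not pass the test (adjusted p 0.238 and 0.145), nor did the F1 changes of -0.28 and -0.15 (adjusted p 0.354 and 0.605). From 2 h to 24 h Rbp4 rose in C3H by 0.75 log2 (adjusted p 0.00984). With slide as a fixed term that rise was 0.85 (adjusted p 0.0644).

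Liver markers were lower beside Rbp4 in B6, with 7 of 7 called lower at 2 h and at 24 h. They were called lower as well where Rbp4 was not, 7 of 7 in C3H at both times and 6 and 7 of 7 in F1. Of 6 adipocyte markers 0 were called by limma in B6 at either time, with median changes of -1.51 and -1.92 log2. The summed level of 7 liver markers, in units of the array's 75th percentile, was 38.9, 9.81 and 13.7 in B6 vehicle, 9.2, 7.95 and 3.58 at 2 h and 1.23, 2.45 and 1.89 at 24 h. Alb, Apoa1 and Fgb, liver genes, were lower by 3.40 to 3.43 log2 at 24 h in B6. For 6 adipocyte markers the sums were 19.5, 23.4 and 11.1 in B6 vehicle, 7.79, 5.09 and 6.11 at 2 h and 4.18, 8.39 and 2.78 at 24 h. Replicate 1 of B6 vehicle was the highest array of the series for Rbp4 and for the liver sum. Without it the B6 fall in Rbp4 at 24 h was -0.55 log2 and lost its call (adjusted p 0.0537). Under median centring it was -0.58 (adjusted p 0.0504) and with slide as a fixed term -0.48 (adjusted p 0.453). In C3H, Rbp4 was called lower at 2 h without vehicle replicate 2 (-0.59, adjusted p 0.0492) and higher at 24 h without vehicle replicate 3 (0.61, adjusted p 0.0485). The part of liver or fat RNA in the Rbp4 values was not tested.

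**Figure D2:**
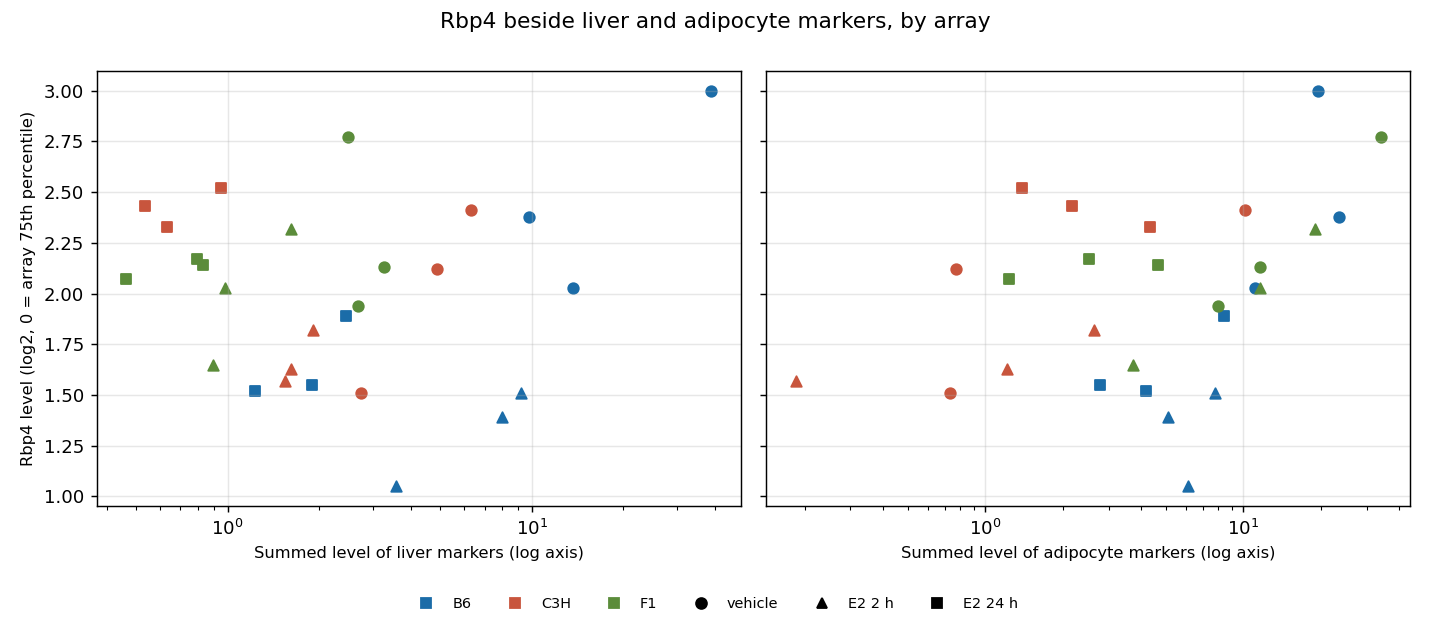
Rbp4 level (log2, vertical) against the summed linear level of 7 liver markers (left) and 6 adipocyte markers (right) on a log axis, one point per array, coloured by strain and shaped by treatment. B6 vehicle replicate 1 is the highest array for Rbp4 and for the liver sum of 38.9, and the 3 C3H 24 h arrays hold Rbp4 at 2.33 to 2.52 with liver sums of 0.534 to 0.953.

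Stra6, the membrane receptor that takes up retinol from its carrier, stayed within a narrow range. In B6, the Stra6 levels were -3.29, -2.78 and -2.96 in vehicle, -2.77, -2.88 and -3.17 at 2 h and -3.52, -3.24 and -3.45 at 24 h. In C3H, Stra6 had levels of -2.83, -2.54 and -2.84 in vehicle, -3.33, -2.94 and -3.14 at 2 h and -3.17, -3.43 and -3.70 at 24 h. In F1, Stra6 was at -3.02, -2.72 and -2.72 in vehicle, -3.01, -2.72 and -2.85 at 2 h and -2.97, -3.04 and -3.23 at 24 h. Only in C3H were all 24 h arrays below all vehicle arrays. The 24 h change was -0.70 log2 in C3H (SE 0.15, 1.62-fold lower, adjusted p 0.000494), -0.40 in B6 (adjusted p 0.0277) and -0.26 in F1 (adjusted p 0.136). The differences between the strains' responses were not called. The B6 call was lost under median centring (-0.16, adjusted p 0.364) and quantile normalization (-0.16, adjusted p 0.358). It was lost too without replicate 2 or 3 of vehicle or replicate 1 or 3 at 24 h, with -0.28 to -0.38. At 2 h C3H showed -0.40 (adjusted p 0.0309), a call lost under median centring (-0.27, adjusted p 0.14) and without C3H E2 2 h replicate 1 or 3 or vehicle replicate 2. From 2 h to 24 h the fall was 0.47 log2 in B6 (adjusted p 0.011), lost without B6 E2 2 h replicate 1 (-0.38, adjusted p 0.0577), and -0.30 in C3H (adjusted p 0.0883), which was called without replicate 1 of either C3H E2 group (-0.43 and -0.40).

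The binding protein genes rose the most. Crabp1 encodes a cytosolic protein that holds retinoic acid and eases its breakdown. B6 arrays gave -5.33, -5.07 and -5.37 in vehicle, -3.61, -3.87 and -3.75 at 2 h and -0.61, -0.99 and -0.59 at 24 h. In C3H, Crabp1 had levels of -3.91, -4.05 and -4.12 in vehicle, -3.33, -2.80 and -3.29 at 2 h and -0.87, -0.96 and -1.08 at 24 h. In F1, Crabp1 was at -4.21, -3.88 and -4.21 in vehicle, -3.83, -3.35 and -3.36 at 2 h and -1.66, -1.22 and -1.12 at 24 h. In each strain the 3 treatments formed separate steps with no overlap, from vehicle to 2 h to 24 h. At 2 h the rise was 1.51 log2 in B6, 0.89 in C3H and 0.59 in F1 (SE 0.17, adjusted p 1.15e-07, 0.000102 and 0.00423). By 24 h it was 23.1-fold in B6, 8.32-fold in C3H and 6.83-fold in F1 (adjusted p 1.13e-14, 5.3e-12 and 1.1e-11). The F1 rise at 2 h was 0.28 with the Edwards background correction (adjusted p 0.0528). With the normexp correction the 2 h change was called in no strain, at 0.82, -0.06 and -0.49 in B6, C3H and F1 (adjusted p 0.591, 0.948 and 0.549). The F1 rise at 24 h was not called with it either (1.27, adjusted p 0.168).

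Crabp2 encodes the binding protein that hands retinoic acid to the receptors. For B6, Crabp2 was measured at -6.53, -6.37 and -6.16 in vehicle, -6.04, -6.26 and -5.23 at 2 h and -3.33, -3.68 and -3.61 at 24 h. In C3H, Crabp2 had levels of -6.88, -7.08 and -6.78 in vehicle, -5.98, -5.48 and -5.85 at 2 h and -4.81, -4.77 and -4.75 at 24 h. In F1, Crabp2 was at -7.17, -8.66 and -6.54 in vehicle, -6.98, -5.93 and -5.88 at 2 h and -4.86, -3.78 and -4.24 at 24 h. The probe was not well above background on any vehicle array of C3H and F1, nor on F1 E2 2 h replicate 1. At 24 h all arrays of each strain lay above its vehicle and 2 h arrays. The rise against vehicle was 7.02-fold in B6 (2.81 log2, SE 0.40, adjusted p 2.35e-06). For C3H and F1 it was at least 4.1- and 5.49-fold (adjusted p 8.06e-05 and 5.25e-07). These bounds set the brighter group's mean against a mean of the higher, per array, of the probe's own level and the lowest level among probes well above background. At 2 h it was at least 2.05-fold for C3H and 1.4-fold for F1 (adjusted p 0.017 and 0.0133), and 0.51 log2 in B6 (adjusted p 0.291). The 2 h calls were lost with the Edwards background, at 0.08 and 0.01 log2 (adjusted p 0.48 and 0.948). They were lost as well without C3H E2 2 h replicate 2 or C3H vehicle replicate 2 (adjusted p 0.0647 and 0.0522) and without F1 E2 2 h replicate 2 or 3 or F1 vehicle replicate 2 (adjusted p 0.0588, 0.0636 and 0.142). Without F1 vehicle replicate 2, at -8.66 the dimmest array, the F1 value at 2 h was 0.59 log2. From 2 h to 24 h the C3H rise was 1.00 log2 (adjusted p 0.0302). It was not called without any 1 of the 3 C3H arrays at 24 h or without replicate 1 or 3 at 2 h, at 0.89 to 1.01 log2. With the normexp background the 24 h change of Crabp2 against vehicle was called in no strain. It was 0.47, 0.67 and -0.37 log2 in B6, C3H and F1 (adjusted p 0.784, 0.927 and 0.746). Beside both binding protein genes, the summed epithelial, smooth muscle and stromal markers were higher at 24 h than in vehicle in each strain. In B6 the smooth muscle sums were 521 to 591 against 337 to 388, and the stromal sums 432 to 480 against 377 to 405. The endothelial and liver sums, among others, were lower in each strain. The part of such shifts in the Crabp1 and Crabp2 values was not tested.

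The receptor genes mirrored each other at 2 h and were back near vehicle at 24 h. Rara encodes the broadly expressed retinoic acid receptor alpha. B6 levels of Rara were -4.59, -4.66 and -4.77 in vehicle, -3.53, -2.97 and -3.51 at 2 h and -4.70, -4.93 and -4.37 at 24 h. In C3H, Rara had levels of -5.26, -4.84 and -4.89 in vehicle, -3.31, -3.28 and -3.41 at 2 h and -4.66, -4.71 and -4.53 at 24 h. In F1, Rara was at -4.83, -4.75 and -4.91 in vehicle, -3.39, -3.20 and -3.20 at 2 h and -4.56, -4.27 and -4.41 at 24 h. All 9 arrays at 2 h lay above all 18 others. The 2 h rise was 1.34, 1.66 and 1.57 log2 (SE 0.14, 2.52-, 3.17- and 2.96-fold, adjusted p 8.08e-08, 2.87e-09 and 6.34e-09). From 2 h to 24 h the level fell by 1.33, 1.30 and 1.15 log2. With the normexp background correction the 2 h rise was called in no strain, at 0.70, 0.18 and -0.05 log2 (adjusted p 0.802, 0.866 and 0.958). The later fall was not called with it either, at -1.12, 0.16 and -0.63 (adjusted p 0.324, 0.869 and 0.733). A small excess over vehicle was called at 24 h in C3H (0.37, adjusted p 0.0299) and F1 (0.41, adjusted p 0.0149), with 0.01 in B6 (adjusted p 0.975). Both small calls were lost with the Edwards background (0.08 and 0.12, adjusted p 0.456 and 0.299). The C3H call was lost without C3H E2 24 h replicate 3 or C3H vehicle replicate 1 (0.31 and 0.24), and the F1 call without F1 E2 24 h replicate 2 or F1 vehicle replicate 3 (0.34 and 0.37).

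Rarb encodes retinoic acid receptor beta, whose gene is itself a textbook target of retinoic acid. Its promoter is shown because it holds the only repeat of the receptor type found in the 15 member promoters. RefSeq promoters of GRCm38.p6 (250 bases before to 50 after a start) were listed for 7 of the 9 genes, not for Aldh1a3 and Crabp2. The motif searched was GTTCA or GGTCA, then 6 bases of any kind, then GTTCA or GGTCA, on both strands. It was in 0.247% of all 32851 promoters. In Rarb it lay 52 to 37 bases before the start, and it stands in capitals in the 250 bases before the start, chr14:16575477-16575726 on the minus strand. Rara is printed for comparison because its promoter at chr11:98939461-98939710 on the plus strand held the most core motifs before a start. There the capitals mark 4 lone core motifs, GGTCA or GTTCA on either strand, with no pair at that spacing.
Rarb: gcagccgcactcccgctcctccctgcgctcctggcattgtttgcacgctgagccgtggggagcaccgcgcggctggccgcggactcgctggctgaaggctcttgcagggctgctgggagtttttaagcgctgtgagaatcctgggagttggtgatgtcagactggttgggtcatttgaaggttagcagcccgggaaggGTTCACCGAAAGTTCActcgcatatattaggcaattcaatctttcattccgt
Rara: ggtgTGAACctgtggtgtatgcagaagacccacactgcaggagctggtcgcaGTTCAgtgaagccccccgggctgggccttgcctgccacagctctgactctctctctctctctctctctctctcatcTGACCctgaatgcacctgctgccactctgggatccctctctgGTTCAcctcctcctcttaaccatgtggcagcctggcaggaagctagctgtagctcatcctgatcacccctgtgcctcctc
The estrogen response element, GGTCA, 3 bases of any kind, then TGACC, was in 0.07% of all promoters and in none of the 15 of these genes. That says only that these letters are not in these windows. A lone core motif was in 9 of the 15 and in 61.2% of all promoters. The TATA box letters TATAA were in 1 of the 15, of Rbp4, and in 24.9% of all. No binding was measured in these samples, and which start each transcript used was not tested.

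For B6, the levels were -1.40, -0.99 and -1.30 in vehicle, -1.79, -2.15 and -2.01 at 2 h and -0.89, -1.38 and -0.70 at 24 h. In C3H, Rarb had levels of -0.96, -0.67 and -0.49 in vehicle, -1.99, -2.24 and -2.34 at 2 h and -0.52, -0.54 and -0.95 at 24 h. In F1, Rarb was at -0.79, -1.40 and -0.88 in vehicle, -2.16, -2.29 and -1.94 at 2 h and -0.75, -0.94 and -1.24 at 24 h. At 2 h all 3 arrays of each strain were below those of vehicle and of 24 h. The 2 h fall was 0.76 log2 in B6, 1.48 in C3H and 1.11 in F1 (SE 0.19, 1.69-, 2.79- and 2.15-fold, adjusted p 0.00233, 1.3e-06 and 4.69e-05). By 24 h Rarb had risen again by 0.99, 1.52 and 1.15 log2 from 2 h (adjusted p 0.00012, 6.51e-07 and 2.27e-05). Against vehicle the 24 h values were 0.24, 0.04 and 0.04 (adjusted p 0.288, 0.869 and 0.851). Under median centring the B6 value at 24 h was 0.48 and was called (adjusted p 0.0353). With slide as a fixed term the B6 fall at 2 h was -0.56 (adjusted p 0.109). With the normexp background it was -0.36 (adjusted p 0.423), and the B6 rise from 2 h to 24 h was 0.5 (adjusted p 0.116), both calls lost. A probe for another Rarb transcript was well above background on 7 of 27 arrays and on all arrays of no group, so it was not tested. At 2 h, when Rarb was low, 6 of 7 stromal markers were called lower in each strain, with summed levels of 276 to 312 against 377 to 405 in B6 vehicle.

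**Figure D3:**
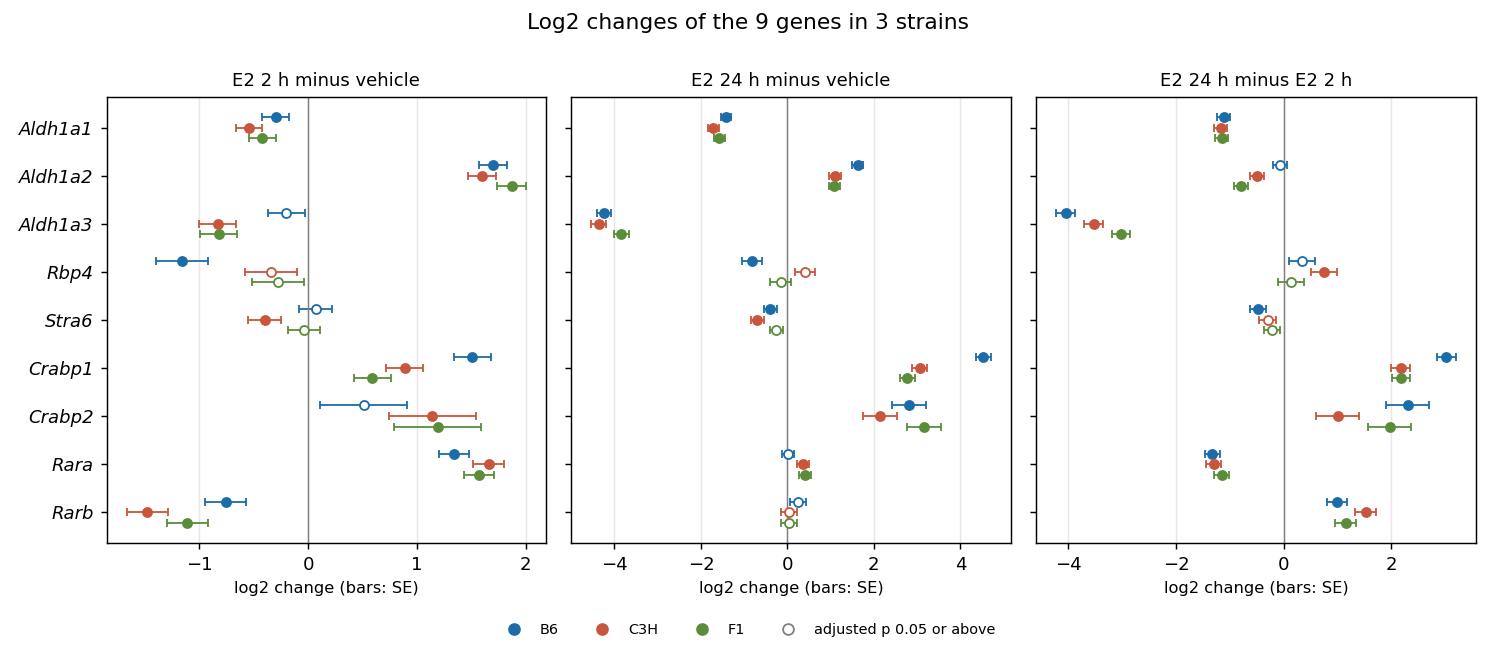
Log2 change of each of the 9 genes at 2 h against vehicle, at 24 h against vehicle and at 24 h against 2 h, with limma SE as bars, by strain. Filled points passed an adjusted p of 0.05 and open points did not. Rara lies at 1.34 to 1.66 and Rarb at -0.76 to -1.48 at 2 h, while at 24 h Crabp1 reaches 4.53 in B6 and Aldh1a3 -4.36 in C3H.

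A few of the 9 genes were called as different between strains in level or response, and Crabp1 was in both. In vehicle Crabp1 was 2.34-fold higher in C3H than in B6 (1.23 log2, SE 0.17, adjusted p 7.91e-06) and 2.23-fold higher in F1 than in B6 (1.15 log2, adjusted p 6.8e-05). F1 and C3H vehicle differed by -0.08 (adjusted p 0.843). At 24 h the Crabp1 means were -0.73, -0.97 and -1.33 in B6, C3H and F1. The E2 response at 24 h was smaller than in B6 by 1.47 log2 in C3H and by 1.76 in F1 (SE 0.24, adjusted p 0.000315 and 0.000342). Neither response difference was called with the normexp background correction (-0.53 and -1.17, adjusted p 0.878 and 0.98). The Crabp1 vehicle differences from B6 were not called with it either, at 0.48 log2 in C3H and 0.65 in F1. Vehicle arrays of C3H and B6 lay on different slides, and with slide as a fixed term their Crabp1 difference was 1.23 and not called (adjusted p 0.084). For Rara the C3H against B6 vehicle difference was -0.33 (adjusted p 0.11), and -1.07 and called with slide as a fixed term (adjusted p 0.0445). That fit joined the slides of these vehicle groups only through single arrays, B6 E2 2 h replicate 1 and B6 E2 24 h replicate 3. In vehicle, 1 of the 9 genes was called for C3H against B6, 1 for F1 against B6 and 0 for F1 against C3H, where 24.1%, 12.5% and 14.3% of all genes were called. At an unadjusted p under 0.05 limma gave 3, 2 and 1 of the 9, and 7458, 5474 and 5877 of all 21866 genes. Rarb in vehicle was 0.52 higher in C3H than in B6 (adjusted p 0.0576), and it was called without B6 vehicle replicate 2 or C3H vehicle replicate 1 (0.64 and 0.65). Crabp2 was not well above background on any F1 vehicle array, and its difference from B6 vehicle was not called (bound of 1.32-fold lower, adjusted p 0.0744). It was called only without F1 vehicle replicate 3 (adjusted p 0.0142), at -6.54 the F1 vehicle array nearest to B6 vehicle.

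The 24 h response also differed between C3H and B6 for Rbp4, by 1.23 log2 (SE 0.35, adjusted p 0.0177), and for Aldh1a2, by -0.53 (SE 0.18, adjusted p 0.0439). The Rbp4 difference sets a fall of 0.82 in B6 against a value of 0.41 in C3H, and it was not called when only the groups compared were fitted (adjusted p 0.0565). The liver sums of the vehicle arrays differed between these strains as well (9.81 to 38.9 in B6, 2.75 to 6.33 in C3H). The Aldh1a2 call was lost with quantile normalization (-0.35, adjusted p 0.145) and without any 1 of 8 arrays. Those were B6 vehicle replicates 2 and 3, B6 E2 24 h replicates 1 and 3, C3H vehicle replicates 1 and 3 and C3H E2 24 h replicates 2 and 3, with -0.44 to -0.58. Of the 9 genes 3 were called for the 24 h response of C3H against B6, 1 for F1 against B6 and 0 for F1 against C3H, where 18.7%, 1.9% and 3.7% of all genes were. An unadjusted p under 0.05 was found for 3, 2 and 1 of them, and for 7065, 3889 and 4103 of all 21866 genes. No member was called for a difference in the 2 h response (0, 0 and 0 by limma, and 5, 3 and 0 at an unadjusted p under 0.05), where 2.16%, 0.599% and 0.229% of all genes were called and 3297, 2499 and 2022 of 21866 had such an unadjusted p. For Crabp1 that 2 h difference was -0.92 in F1 against B6 (adjusted p 0.0852).

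Other genes of retinoid handling were taken from 5 lists. Against vehicle 56.2%, 60.3% and 59.2% of all genes tested were called at 2 h in B6, C3H and F1, and 68.0%, 67.1% and 68.5% at 24 h. A list's count near these shares says nothing particular about its genes. Of the 19 tested genes of retinol oxidation and aldehyde handling, 6, 6 and 5 were called higher and 8, 8 and 4 lower at 2 h in B6, C3H and F1. At 24 h 7, 5 and 4 were higher and 8, 5 and 4 lower, with median changes of -0.08, -0.19 and 0.02 log2. Dhrs9, a dehydrogenase that can oxidise retinol, rose by 1.02, 1.92 and 1.35 log2 at 2 h and by 4.56, 4.55 and 4.23 at 24 h (SE 0.25, largest adjusted p 0.00169 and 9.62e-12). Rdh5 and Rdh14, further retinol dehydrogenases, fell at 2 h by 1.32, 1.17 and 1.44 and by 1.13, 1.04 and 1.06 log2. Rdh10, which makes much of the retinaldehyde used for retinoic acid, was lower by 1.06, 1.27 and 0.96 log2 at 2 h and higher by 0.36, 0.97 and 0.61 at 24 h. Dhrs4 rose at 24 h by 1.52, 1.27 and 1.41. Rdh7 fell by 3.28, 2.45 and 1.90 log2 at 24 h (SE 0.39), with liver markers lower beside it.

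For uptake, storage and carriers 13 genes were tested, of which 1 was called higher in each strain at 2 h and 4, 1 and 3 lower. At 24 h 3 were called higher in each strain and 6, 4 and 6 lower. The gene that rose at 2 h was Lrat, which esterifies retinol for storage, by 4.53 log2 in B6, 2.61 in C3H and 3.53 in F1 (SE 0.20, largest adjusted p 3.92e-10), with 2 of 3 B6 vehicle arrays well above background. At 24 h Lrat was 1.66, 0.61 and 0.75 log2 above vehicle. Lrp2, an endocytic receptor that takes up carrier-bound retinol, fell by 1.46, 1.08 and 1.94 log2 at 24 h, and the esterase gene Ces1d fell by 1.73, 1.31 and 1.61. Ttr, the plasma partner of the RBP4 protein, was not well above background on any array at 24 h and was lower by at least 2.7-, 2.34- and 1.16-fold in B6, C3H and F1, where 3, 3 and 1 of the 3 vehicle arrays measured it. Ttr is a liver gene as well, and the part of liver RNA in it was not tested.

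Of the breakdown genes Cyp26a1 and Cyp26b1 0 were called at 2 h by limma in any strain, with Cyp26b1 at -1.21 in C3H (adjusted p 0.081) and Cyp26a1 at 0.40 in B6 (adjusted p 0.0892). At 24 h Cyp26a1 was lower in B6 (-0.94) and Cyp26b1 in C3H (-1.35), with 0 called in F1. Of 11 receptors and partners 3 were called higher at 2 h in each strain and 3, 4 and 4 lower, and at 24 h 1, 2 and 3 higher and 6, 6 and 6 lower. Rarg, the third receptor of the family, was lower at 2 h by 0.40, 0.39 and 0.47, and Rxra, a partner of all of them, by 0.55, 0.68 and 0.64.

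Among 12 tested genes known to respond to retinoic acid, 3, 4 and 4 were called higher and 7, 7 and 5 lower at 2 h, with medians of -0.66, -0.56 and -0.30 log2 beside -0.08, -0.10 and -0.10 for all genes. At 24 h 3, 2 and 2 were higher and 7, 5 and 6 lower. Rai14 rose by 2.04, 2.08 and 1.93 and Epha2, a receptor kinase, by 1.99, 2.00 and 2.16 at 2 h. Nr2f2, an orphan nuclear receptor of uterine stroma, fell by 2.07, 2.28 and 2.02 at 2 h and Hoxa5 by 2.24, 1.77 and 2.41. Hoxa5 was still lower at 24 h by 1.41, 1.00 and 1.20 log2, and Rarres1 by 2.13, 1.38 and 1.66. The genes of this list thus did not share 1 direction at either time.

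**Figure D4:**
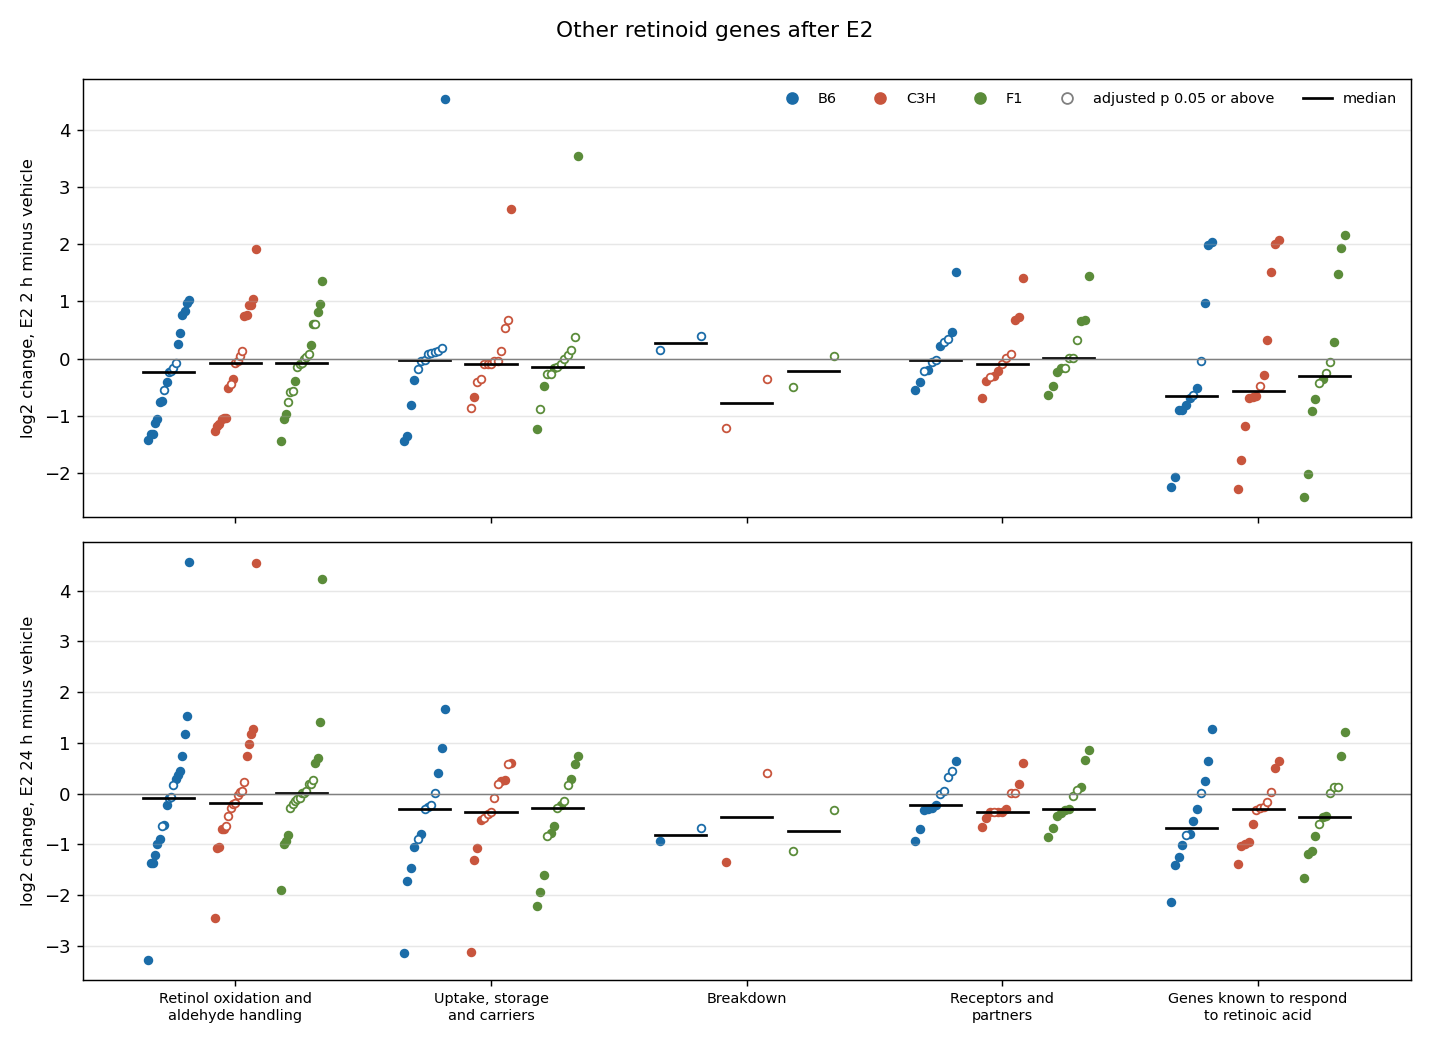
Log2 change after E2 at 2 h (top) and 24 h (bottom) of the tested genes of 5 lists of retinoid handling and response, one point per gene and strain. Filled points passed an adjusted p of 0.05, open points did not, and black lines are medians. Lrat stands highest at 2 h (4.53 in B6) and Dhrs9 at 24 h (4.56 in B6).

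Across the 9 group means the members fell into patterns that can be described by Pearson's r, which here is a description over 9 means that share treatments. Aldh1a1 and Aldh1a3 varied together (r = 0.98), and both ran opposite to Crabp1 (-0.96 and -0.95) and Crabp2 (-0.90 and -0.91). Crabp1 and Crabp2 had r = 0.88, and Rara and Rarb -0.95. Of all genes with a known symbol, the 3 most alike to Aldh1a3 were Adamtsl1, Clip1 and Coch (0.996, 0.996 and 0.995), and to Aldh1a1 Cep170, Ppm1d and Kansl1 (0.996, 0.993 and 0.993). For Aldh1a2 they were Cdc34, Nol9 and Nrbp1 (0.990, 0.988 and 0.988). Crabp1 was most like Pyurf, Ndufab1 and Etfa (0.997, 0.989 and 0.987), and Crabp2 like Myl7, Cdkn3 and Dcp2 (0.991, 0.984 and 0.983). For Rara they were Gadd45a, Mycl and Il17ra (0.994, 0.993 and 0.993), and for Rarb Rev3l, Ccdc184 and Tesk2 (0.990, 0.987 and 0.985). Rbp4 and Stra6 had no close match, with r up to 0.898 for Tnfrsf21 (then Rab17 and Slc15a2, both 0.891) and up to 0.946 for Dnah5 (then Tec at 0.944 and Prrc2c at 0.937).

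The 27 arrays lay on 7 slides that each held 1 or 2 groups, so slide was checked where it could be. A fixed term for slide could be fitted for 7 of the 18 comparisons. It could not for the 24 h change against vehicle in C3H and F1 or the 2 h change in C3H. The F1 change from 2 h to 24 h, F1 vehicle against either parent strain and every strain difference in the 24 h response were left out too. In these, E2 or strain and slide cannot be told apart. For 4 comparisons 1 slide held arrays of both groups, a subset of the arrays behind each call. Within its slide, Crabp2 in F1 at 2 h changed by 0.28 in place of 1.19 log2, Rara in B6 at 2 h by 1.14 in place of 1.34, and Aldh1a2 in F1 at 2 h by 2.05 in place of 1.87.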

How the data were processed

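Uterine RNA was hybridised to 27 one-colour Agilent arrays, 3 in each of 9 groups. Signals were extracted with Feature Extraction 9.5 per the submitters' processing notes (9.5.3.1 per the file headers), and the authors deposited processed intensity values per spot, spatially detrended with no separate background correction per the file headers. The deposited table of values, an intensity with its scaling unstated, matched the scanner values on 27 of 27 arrays, with column medians of 120.21 to 160.691.

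Each array had 45018 spots, of which 1639 were controls and were left out, as were 48 to 117 outlier spots. Spots of a probe were averaged, giving 41174 probes. The log2 intensity was centred on the array's 75th percentile. A gene was tested through its brightest probe that was well above background on all arrays of a group, which left 21866 genes. A model of 9 group means was fitted with limma 3.58.1 (R 4.3.3) over 18 contrasts, with Benjamini-Hochberg adjustment over all genes and calls at 0.05. The number of arrays limits the precision. The script was tested on simulated data. Genes were named through RefSeq tables (22951 probes by accession, 6659 by symbol, 3109 by synonym, 8455 by the file's own name), and promoters came from the same tables (GRCm38.p6). The files name the mm7 build, so no coordinate of theirs was used.

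The members and gene lists were chosen with earlier results of these data known. Named pathway genes were those called in 1 direction in all 3 strains with a change past 1 log2 in each (1 gene that met this rule is not reported here), and the genes alike to a member were the 3 with the highest Pearson's r. Rdh10, Rarg, Rxra and the CYP26 genes, and the later or earlier values of named genes, were added after their values were seen. Alternatives were other scalings, background corrections, filters, slide and replicate terms and leaving out each array.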

Additional observations from a re-analysis of the deposited data

Results flagged for a closer look

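The response to E2 at 24 h was called as different between strains for 3 genes, each by the limma test of the difference itself. For Crabp1 the response was smaller than in B6 by -1.47 log2 in C3H and by -1.76 in F1 (adjusted p 0.000315 and 0.000342), with rises of 4.53, 3.06 and 2.77 in B6, C3H and F1. For Rbp4 the C3H response exceeded that of B6 by 1.23 log2 (adjusted p 0.0177), with 0.41 in C3H and -0.82 in B6. For Aldh1a2 the C3H response was lower than that of B6 by -0.53 log2 (adjusted p 0.0439), with rises of 1.10 and 1.63. None of these differences was called by limma with the normexp background. The adjusted p was then 0.878 and 0.98 for Crabp1, 0.386 for Rbp4 and 0.242 for Aldh1a2. Strain and slide cannot be told apart in the 24 h response.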

How the results depend on the processing

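Besides leaving out arrays, alternatives gave 1550 values of single genes on the same side of the threshold, 73 calls lost, 10 gained, 59 values that moved and 9 that reversed; leaving out 1 array gave 1189, 37, 7, 63 and 0. The normexp background, whose fitted mean ran from -944 to 0.945 over arrays, reversed Crabp1 at 2 h in C3H (-0.06) and F1 (-0.49), Crabp2 at 2 h in C3H (-0.73) and F1 (-1.13) and at 24 h in F1 (-0.37), and Rara in F1 at 2 h (-0.05) and 24 h (-0.68) and in C3H from 2 h to 24 h (0.16). Under normexp the Rara change at 2 h and the Crabp2 change at 24 h were thus called in no strain. The dimmer Aldh1a3 probe gave 0.00 in F1 at 2 h. The cause was not tested. Under normexp the members called were 2, 2 and 2 at 2 h, 4, 4 and 3 at 24 h, 2 in B6 and 5 in C3H from 2 h to 24 h, and 0 for vehicle and 0 for the 24 h response in C3H and F1 against B6. With slide as a fixed term 5 were called in C3H from 2 h to 24 h. For C3H against B6 vehicle 2 were called under median centring, quantile normalization, the Edwards background (chosen after seeing the data) and a fit of only those groups. Searching for the core motif alone raised the promoters matched from 1 to 9.

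Without 1 array the members called ranged, in B6, C3H and F1, from 5 to 6, 7 to 8 and 6 to 7 at 2 h, 6 to 7, 6 to 8 and 5 to 6 at 24 h and 6 to 7, 7 to 8 and 7 to 7 from 2 h to 24 h. For vehicle they were 1 to 2, 1 to 2 and 0 to 0, for the 2 h response 0 and for the 24 h response 2 to 3, 1 to 1 and 0 to 0. Arrays of the same replicate number were not treated as pairs in the main fit. Within a strain, 5 of 27 same-number pairs and 5 of 54 other pairs had r over 0.1. Between strains these were 18 of 81 and 19 of 162. Whether the numbers pair the arrays was not tested further. With the replicate block Aldh1a2 in the 24 h response of C3H against B6 was -0.53 (adjusted p 0.0541), a call lost. Median centring moved the median of all genes by -0.05 to 0.23 log2, and the share of higher calls at 24 h in B6 from 45.4% to 60.8%. Crabp2 is limited by its dim signal. Rara and Crabp1 were well above background on all 27 arrays but were also dim in vehicle, with mean signals of 38.91 to 48.88 and 32.78 to 75.25. Protein sequences were not compared.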
